A study of Mus musculus with 6 samples.

Results

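The genes described here are 10 markers of intestinal tuft cells, grouped as transcription factors (Pou2f3, Gfi1b), signalling genes (Dclk1, Gnat3, Trpm5, Rgs13), eicosanoid genes (Ptgs1, Alox5, Alox5ap) and the cytokine gene Il25. They were chosen by name, with earlier results of these data known. Of the 10, 9 had a probe set with 1 gene symbol, each exactly 1 such probe set, and were measured among 19938 genes in all. No probe set used here was paired with Ptgs1, the gene of cyclooxygenase 1, so it has no value. RNA came from the isolated small intestinal epithelium of mouse embryos at stage E18.5, on 3 arrays labelled control and 3 labelled Gata4Gata6 cKO, a double conditional knockout of the transcription factor genes Gata4 and Gata6. The labels name no cre driver, deleted exon, control genotype or strain. They also do not say whether each array had its own embryo, so a p-value here reflects array-to-array spread that may be only technical.

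Tuft cells are rare chemosensory cells of the gut epithelium. They depend on the POU-domain factor POU2F3 and sense luminal compounds through a cascade shared with taste cells, in which a G protein containing gustducin acts on phospholipase C, calcium is released, and the cation channel TRPM5 opens. They answer with interleukin 25, which acts on innate lymphoid cells, and with prostaglandins and leukotrienes made from arachidonic acid. GATA4 and GATA6 are zinc finger factors that set regional identity and cell maturation in the small intestinal epithelium.

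The genes named in the cKO label were checked first. Gata4 stood at 10.95, 10.93 and 10.96 on the control arrays and at 11.34, 11.39 and 11.51 on those labelled cKO, a rise of 0.47 ± 0.07 (limma's adjusted p = 0.0101). Gata6 rose by 0.45 ± 0.06 (adjusted p = 0.00670). Both signals were thus higher, not lower, on the arrays labelled cKO. Which part of each gene was deleted is not stated, nor where the probes lie in it, so these levels do not check the deletion and every direction here rests on the labels. Across probe sets cKO 1 and cKO 3 correlated at 0.978, and cKO 2 stood apart from both (0.964 and 0.965). Median levels were alike, from 7.73 to 7.84. The 7 epithelial markers were bright on all arrays (means of 11.97 to 12.04 on the controls and 12.05 to 12.20 on the cKO arrays), with 2 called higher, Epcam and Krt8 (0.32 each), each call kept in 1 of 6 fits with an array left out.

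Among the 9 measured tuft cell genes, Rgs13 was higher and Pou2f3 was lower on the arrays labelled cKO, and 7 did not pass the test. A gene passed when limma's p, adjusted by Benjamini-Hochberg over all 19938 genes, was under 0.05. Of all genes tested, 12.9% passed, 5.52% higher and 7.42% lower, and the counts of the 9 are 1 gene in each direction. The control and cKO arrays did not overlap for 2 of the 9 genes, against 32.6% of all genes. An unadjusted p under 0.05, given below for lists with 0 calls, was reached by 26.6% of all genes, which is the share to set such counts against. The median change of the 9 was 0.12 on the log2 scale, against −0.01 over all genes. That median was the value of Alox5, which was highest on cKO 2 and turned to −0.16 without that array. Changes are cKO minus control in log2 units with their SE (n = 3 arrays in each group), and brackets give the 95% confidence interval where one is printed. In RNA of mixed epithelial cells, fewer cells of a type and less RNA per cell cannot be told apart.

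**Figure D1:**
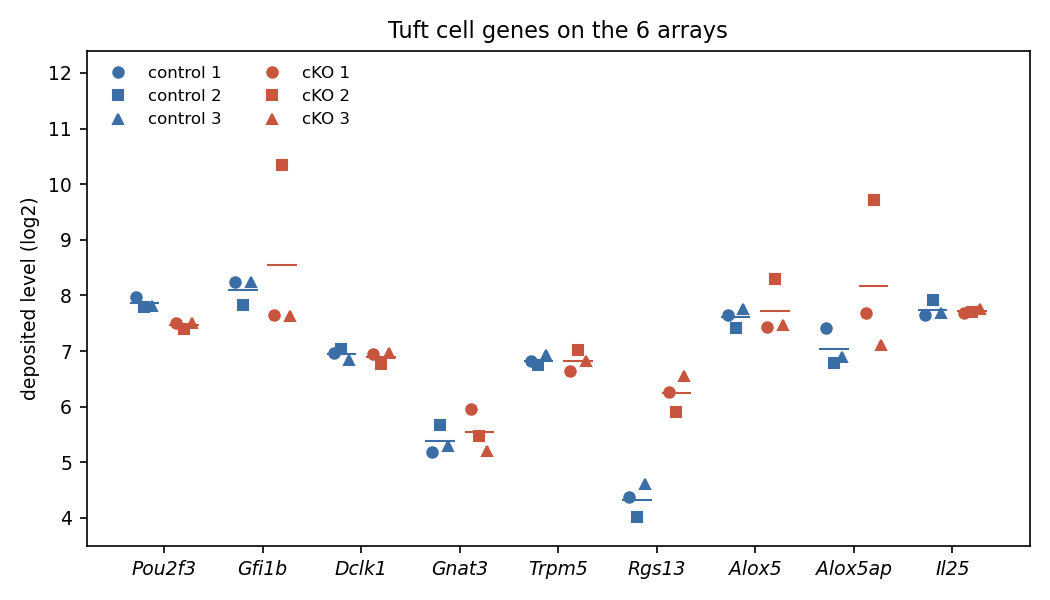
Deposited log2 level of the 9 measured tuft cell genes on each of the 6 arrays, with control arrays in blue, arrays labelled cKO in red, a marker shape for each array number and a line at each group mean. Rgs13 is higher on every cKO array than on any control array and Pou2f3 is lower, while Gfi1b and Alox5ap are high on cKO 2 alone, at 10.35 and 9.72.

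Promoter sequences are shown for the gene that rose most, Rgs13, and for a pair of members that did not pass, Gfi1b and Trpm5, because the genes named in the cKO label encode factors that bind the GATA motif. Each is the 250 bases before the annotated start, read 5′ to 3′ on the gene's strand, from RefSeq on GRCm38.p6, and capitals mark a GATA motif (the letters AGATAA or else AGATAG or else TGATAA or else TGATAG, on either strand). They lie at chr1:144177373-144177622 (minus strand), chr2:28621983-28622232 (minus strand) and chr7:143094643-143094892 (minus strand).
Rgs13: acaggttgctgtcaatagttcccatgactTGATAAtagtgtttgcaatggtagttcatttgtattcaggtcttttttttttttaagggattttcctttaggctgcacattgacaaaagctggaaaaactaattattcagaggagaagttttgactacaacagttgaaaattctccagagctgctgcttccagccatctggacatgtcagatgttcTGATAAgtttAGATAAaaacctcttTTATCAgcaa
Gfi1b: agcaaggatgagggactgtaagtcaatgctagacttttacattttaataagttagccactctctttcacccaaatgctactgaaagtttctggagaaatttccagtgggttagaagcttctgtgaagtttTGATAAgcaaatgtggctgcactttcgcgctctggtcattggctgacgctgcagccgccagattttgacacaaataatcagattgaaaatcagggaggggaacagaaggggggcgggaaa
Trpm5: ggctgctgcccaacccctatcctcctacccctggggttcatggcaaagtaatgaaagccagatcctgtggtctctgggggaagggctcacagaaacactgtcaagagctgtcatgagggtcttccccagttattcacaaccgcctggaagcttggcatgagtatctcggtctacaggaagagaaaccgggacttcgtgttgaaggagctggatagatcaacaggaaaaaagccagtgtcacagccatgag

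The Rgs13 window held 4 matches, beginning 221, 35, 25 and 10 bases before the start, with the last on the opposite strand. The Gfi1b window held 1, beginning 120 bases before the start, and the Trpm5 window held 0. At least 1 match was found in 26.5% of 32851 windows of this length in the RefSeq table. At least 4, a cut-off equal to the Rgs13 count and not planned beforehand, were found in 0.21%. RefSeq entries were matched for 7 of the 10 members, with 8 starts among them since Dclk1 has 2. There was no entry for Pou2f3, Alox5ap or Il25, and the 8 starts include that of Ptgs1, which has no level here. Windows of 4 of these 8 starts held a GATA motif: besides Rgs13 and Gfi1b, they were those of Alox5 and of the second Dclk1 start, with 1 match each. The octamer ATGCAAAT, a motif bound by POU2F factors and searched on both strands, was in 0 of the 8 windows and in 1.6% of all windows. A match is a run of letters and does not show binding.

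Rgs13, a regulator that shortens G protein signalling, carried the only change of more than 2-fold that passed among the 9. Its level was 4.37, 4.01 and 4.60 on the control arrays and 6.26, 5.91 and 6.55 on the arrays labelled cKO. The lowest array labelled cKO stood above the highest control, and the spread within each group was small beside the gap (SD 0.30 and 0.32, n = 3). The change was 1.91 ± 0.21 (1.41 to 2.42), which is 3.77-fold on the deposited scale, with limma's adjusted p = 0.00246. Of all 19938 genes, 70 passed with a rise at least as large, which is 0.351%. The call was kept with each array left out in turn (1.75 to 2.08, adjusted p 0.00176 to 0.0153). On the scale of log2(level + 32) the change was 1.05 (adjusted p = 0.00238).

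The Rgs13 signal was dim. Its mean over the 6 arrays lay at the 3.46th percentile of all genes tested, and no detection calls were used here, so the probe set cannot be called above background. For orientation, the 1027 olfactory receptor genes on the array, a family used mainly in the nose, had a median level of 6.03 and a 5th to 95th percentile range of 4.06 to 7.55. Rgs13 lay within that range on 5 of 6 arrays and just under it on control 2. Of these receptor genes 24 (2.34%) passed the test, 5 of them higher, and the largest rise of any was 1.00. Probe sets bind with different strength, so no order of expression between genes is read from these levels.

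Most of the other members were dim as well. Under the median of all mean levels (8.21) lay 8 of the 9, all but Gfi1b, and in the lower tertile (under 7.50) lay 4: Rgs13, Gnat3, Trpm5 and Dclk1. Gnat3 was also under the olfactory receptor median, at the 4.26th percentile. Of the 6644 genes in the lower tertile 4.14% passed. For these dim genes a missed threshold does not show that a level stayed the same.

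**Figure D2:**
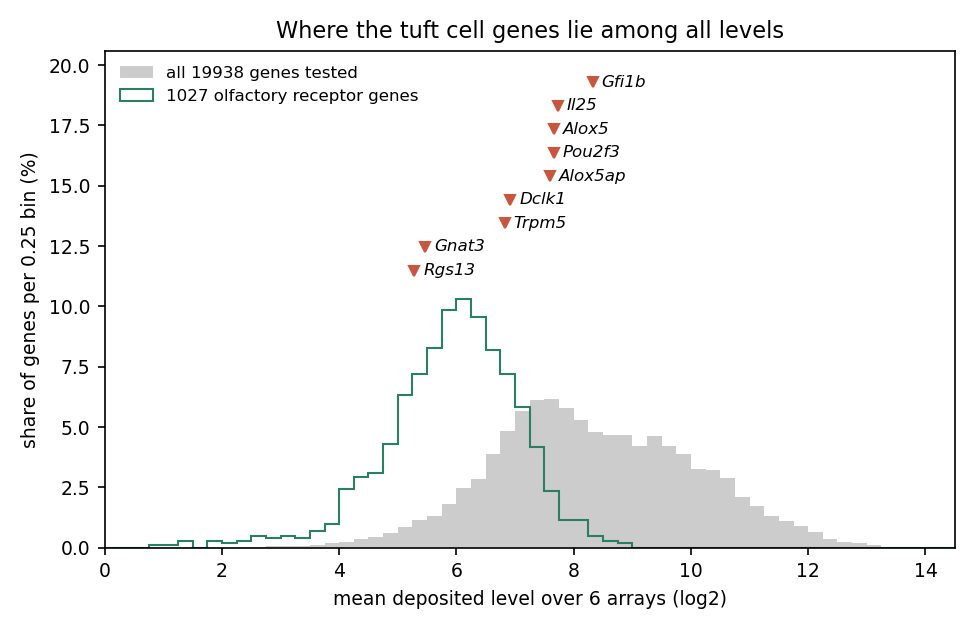
Histogram of the mean deposited log2 level over 6 arrays for all 19938 genes tested (grey) and for 1027 olfactory receptor genes (green outline), as a share of each set per bin. Red triangles give each tuft cell gene's place on the horizontal axis, and their height has no meaning; Rgs13 and Gnat3 sit below the olfactory receptor median of 6.03.

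Pou2f3, the factor that tuft cells need to form, was slightly lower. It stood at 7.97, 7.79 and 7.81 on the control arrays and at 7.51, 7.39 and 7.51 on the arrays labelled cKO. Every cKO array was below every control array. Its mean lay at the 37.37th percentile of all genes tested. The cKO arrays lay inside the olfactory receptor range (up to 7.55) and the controls above it. No detection calls were used, so this probe set cannot be called above background either. The change was −0.39 ± 0.08 (−0.59 to −0.19; control 1.31-fold over cKO) with limma's adjusted p = 0.0297. This call was lost on leaving out any 1 of the 6 arrays (−0.42 to −0.33, adjusted p 0.0623 to 0.0798), and when each array was centred on its median (−0.40, adjusted p = 0.0502).

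Gfi1b encodes a zinc finger repressor of transcription that is present in tuft cells and also needed for red blood cells and platelets. Its level was 8.24, 7.82 and 8.25 on the control arrays and 7.65, 10.35 and 7.63 on cKO 1, 2 and 3. Only cKO 2 was high, and cKO 1 and cKO 3 were below every control. The change was 0.44 ± 0.72 (−1.30 to 2.18, adjusted p = 0.757). Without cKO 2 it turned to −0.46 (−0.83 to −0.10, adjusted p = 0.119), and without both cKO 2 and control 3 it was −0.39 (−0.80 to 0.02, adjusted p = 0.255). Control 1 stayed in both fits. The erythroid and megakaryocyte markers listed below averaged 8.62 on control 1, 7.89 on control 2 and 8.57 on control 3. Gfi1b was likewise lowest on control 2 among the controls, and the part of blood cells in these negative values was not tested.

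The signalling genes Dclk1, Gnat3 and Trpm5 showed no change past the test. Dclk1, a microtubule-associated kinase and the usual stain for tuft cells, stood at 6.96, 7.04 and 6.84 on the control arrays and at 6.95, 6.76 and 6.96 on the cKO arrays. The groups overlapped, with a change of −0.06 ± 0.09 (−0.28 to 0.17, adjusted p = 0.757). Trpm5, the calcium-opened channel at the end of the cascade, stood at 6.82, 6.74 and 6.92 against 6.64, 7.01 and 6.82. Its change was −0.0033 ± 0.11 (−0.27 to 0.27, adjusted p = 0.989), and the cKO arrays spread around the controls on both sides. Gnat3, the alpha subunit of gustducin, stood at 5.19, 5.67 and 5.29 against 5.96, 5.48 and 5.21. Only cKO 1 was above the control range, and the change was 0.17 ± 0.22 (−0.36 to 0.69, adjusted p = 0.691). For none of the 3 was the difference between group means larger than the SD within the cKO arrays.

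The eicosanoid genes were high on 1 array. Alox5 encodes 5-lipoxygenase, which starts leukotriene synthesis, and Alox5ap encodes the membrane protein that hands it arachidonic acid, and both are abundant in leukocytes. Alox5ap stood at 7.42, 6.79 and 6.89 on the control arrays and at 7.69, 9.72 and 7.11 on cKO 1, 2 and 3, a change of 1.14 ± 0.64 (−0.41 to 2.69, adjusted p = 0.328). Without cKO 2 the change was 0.37 (−0.23 to 0.96, adjusted p = 0.439). Alox5 stood at 7.65, 7.42 and 7.75 against 7.43, 8.29 and 7.46, a change of 0.12 ± 0.24 (−0.47 to 0.71, adjusted p = 0.805). Without cKO 2 it turned to −0.16 (−0.45 to 0.13, adjusted p = 0.487). For both genes cKO 2 was the highest of the 6 arrays and the other arrays of the groups overlapped.

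Il25, the tuft cell cytokine gene, did not pass. It stood at 7.64, 7.92 and 7.68 on the control arrays and at 7.68, 7.70 and 7.76 on the cKO arrays. All 3 cKO arrays lay inside the control range, and the change was −0.03 ± 0.10 (−0.26 to 0.20, adjusted p = 0.867).

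Blood cell lists moved with the high array. The myeloid list of 11 genes averaged 9.32 on cKO 2, against 7.42 to 7.76 on the other cKO arrays and 7.58 to 8.0 on the controls, and 9 of its 11 genes were highest on cKO 2. The erythroid and megakaryocyte list (10 of 13 genes measured) averaged 10.30 on cKO 2, 7.83 and 7.75 on cKO 1 and cKO 3, and 8.62, 7.89 and 8.57 on the controls, and all 10 were highest on cKO 2. Summed over genes, the log2 level of the myeloid list ranged from 11.5 to 11.9 on the controls and from 11.02 to 13.2 on the cKO arrays, and that of the erythroid list from 11.4 to 12.3 and from 11.3 to 14.2. No marker of any list was listed at 0. In the myeloid list Itgam, an integrin of granulocytes and macrophages, passed as higher (1.30 ± 0.29, adjusted p = 0.0340) and Csf1r, the brightest of the list and a receptor of macrophages, as lower (−2.22 ± 0.40, adjusted p = 0.0148). Each call was kept in 2 of 6 fits with an array left out. Neither followed cKO 2 alone, since all 3 cKO arrays were above the controls for Itgam and below them for Csf1r. The erythroid list had 0 calls by limma and 0 genes with an unadjusted p under 0.05, and its brightest gene, Alas2, which starts haem synthesis, had a difference of 0.31 ± 0.89 (adjusted p = 0.867). Outside the blood lists, all 9 hepatocyte markers and all 5 endothelial markers were also highest on cKO 2. Each list had 0 calls by limma, with 1 hepatocyte and 0 endothelial genes at an unadjusted p under 0.05. The brightest, Trf and Cdh5, had differences of 0.85 and 0.01. Hepatocyte signal was not confined to cKO 2. The list averaged 10.25, 8.44 and 11.58 on controls 1, 2 and 3, and the lowest cKO mean was 8.79, on cKO 1. Controls 1 and 3 thus stood above both cKO 1 and cKO 3. With such spread within each group, 0 calls do not show equal hepatocyte signal in the groups. The part of liver cells in the levels given here was not tested. The part of blood cells in the Gfi1b, Alox5 and Alox5ap levels was not tested beyond the values without cKO 2.

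**Figure D3:**
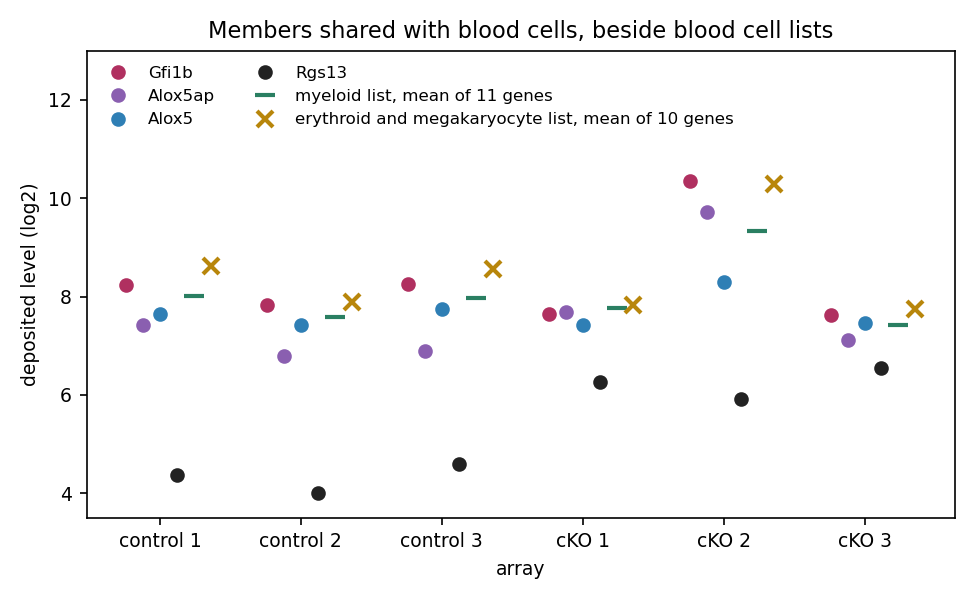
Deposited log2 level of Gfi1b, Alox5ap, Alox5 and Rgs13 on each array (dots), beside the mean level of the myeloid list (green dash) and of the erythroid and megakaryocyte list (cross); symbols are offset sideways for legibility. Both lists and the first 3 genes peak on cKO 2. The Rgs13 level there, 5.91, is the lowest of the cKO arrays.

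The Rgs13 level was lowest on cKO 2 among the 3 cKO arrays, and the Rgs13 change without cKO 2 was 2.08 (limma's adjusted p = 0.00176). Itgam of the myeloid list was likewise higher on all 3 cKO arrays than on any control. The part of blood cells in the Rgs13 level was not tested. Rgs13 is also known from mast cells and germinal centre B cells. Of 10 mast cell markers 2 were higher and 2 lower. Kit, the brightest of them and a receptor also found on other cells, rose by 1.47 ± 0.13 (adjusted p = 0.00103) and Hdc, which makes histamine, by 0.38 ± 0.08 (adjusted p = 0.0294). With each array left out in turn the Kit call was kept in 6 of 6 fits and the Hdc call in 0 of 6 (adjusted p of 0.0544 to 0.0849). The mast cell protease genes Mcpt1 and Mcpt2, related genes whose signals may mix, fell (−1.20 ± 0.26 and −1.43 ± 0.25, limma's adjusted p = 0.0285 and 0.0143). These calls were kept in 2 and 4 of those 6 fits. The other 6 did not pass. Tpsb2 was at 0.20 ± 0.08 (adjusted p = 0.159) with the cKO arrays all above the controls, and Mcpt4, Cma1, Cpa3, Fcer1a and Ms4a2, whose groups overlapped, were at −0.17, −0.10, −0.04, 0.03 and −0.03. Fcer1a and Ms4a2 were dim, at the 11.33th and 8.45th percentiles of mean level. The mast cell list averaged 7.35 to 7.64 on the controls and 7.30 to 7.55 on the cKO arrays. Its summed log2 level was 10.9 to 11.2 and 11.2 to 11.3. Bright genes weigh most in such a sum. On the cKO arrays Kit stood at 9.91 to 10.08 and every other marker of the list at 8.24 or below. The sum therefore does not compare mast cell signal between the groups. Of 5 measured B cell markers 0 passed by limma, with 0 at an unadjusted p under 0.05, and the list averaged 7.02 to 7.19 against 6.93 to 7.47 (summed log2 level 9.57 to 9.66 and 9.46 to 10.12). The brightest B cell marker, Cd79b, had a difference of 0.12 ± 0.33 (adjusted p = 0.859). The part of these cells in the Rgs13 level was not tested further. Among other cell types, markers of enteroendocrine cells, which share part of their secretory origin with tuft cells, were lower for 3 of 6 genes: Chga (−1.08 ± 0.10, adjusted p = 0.00137), Neurod1 and Pax6. With an array left out these calls were kept in 6, 3 and 1 of 6 fits. Markers of neurons, which also express Dclk1, were lower for 2 of 5, Ret (−1.40 ± 0.20, adjusted p = 0.00639) and Snap25, kept in 6 and 5 of 6 such fits. Of 7 mesenchymal markers 0 passed by limma, although 6 had an unadjusted p under 0.05, 5 of them higher and 1 lower. The brightest, Vim, was at 1.32 ± 0.35 (adjusted p = 0.0578). It passed in 6 of 16 alternatives, among them quantile normalization at 0.0430.

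The remaining tuft cell pathway genes were taken from 4 further lists, of which 45 of 47 genes were measured. Of the 45, 2 were higher and 1 lower, beside the 12.9% of all genes that passed, and their median change was −0.02. The 3 were Pla2g4a, Lta4h and Sh2d6.

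In the list of eicosanoid synthesis and release, 1 of 10 genes was higher and 1 lower (median 0.03). Pla2g4a, cytosolic phospholipase A2, which frees arachidonic acid, stood at 8.28, 8.63 and 7.79 on the control arrays and at 9.46, 9.14 and 9.50 on the cKO arrays. All 3 cKO arrays were above all controls, and the change was 1.13 ± 0.22 (0.60 to 1.67, 2.19-fold, adjusted p = 0.0207). Leaving out control 1, cKO 1 or cKO 3 ended the call (adjusted p of 0.0651 to 0.0723). Lta4h, which makes leukotriene B4, stood at 11.13, 11.18 and 11.24 against 10.81, 10.67 and 10.74. The groups were apart and the change was −0.44 ± 0.07 (−0.62 to −0.26, adjusted p = 0.0122), and leaving out control 2, control 3 or cKO 3 ended the call (adjusted p of 0.0501 to 0.0530). Alox12, a lipoxygenase gene of platelets named after its values were seen, was at 8.40 on cKO 2 and at 6.26 to 6.63 on the other 5 arrays. Its change did not pass (0.65 ± 0.53, limma's adjusted p = 0.499). Of the 10 genes in this list 4 were highest on cKO 2, against 4248 of all 19938 genes.

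In the list of tuft cell structure and surface genes, 1 of 16 measured was higher and 0 were lower (median −0.04). Of the 16 changes 7 were above 0 and 9 below. The groups were apart for 5 of the 16, against 32.6% of all genes. Sh2d6, an adaptor gene with an SH2 domain, stood at 7.55, 7.53 and 7.50 on the control arrays and at 7.77, 8.14 and 7.95 on the cKO arrays. Its groups were apart and its change was 0.43 ± 0.11 (0.17 to 0.68, adjusted p = 0.0469), a call kept only without cKO 1 among the 6 fits with an array left out (adjusted p up to 0.141).

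The taste-type cascade had 0 calls among 10 genes by limma, with 4 at an unadjusted p under 0.05 against 26.6% of all genes, of which 2 were higher and 2 lower (median −0.04). Its smallest adjusted p values belonged to the G protein subunit genes Gnb3 (−0.35 ± 0.10, adjusted p = 0.0859) and Gng13 (0.30 ± 0.10, adjusted p = 0.103). Their proteins are partners of gustducin in one G protein, and the values pointed in opposite directions. The type 2 cytokine circuit had 0 calls among 9 measured genes, with 3 at an unadjusted p under 0.05 (median −0.02). Closest were Stat6, which relays interleukin 4 and 13 (−0.27 ± 0.07, adjusted p = 0.0502), and the receptor gene Il13ra1 (0.24 ± 0.07, adjusted p = 0.0782). Of the 45 genes, 15 were highest on cKO 2, against 4248 of all 19938 genes.

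**Figure D4:**
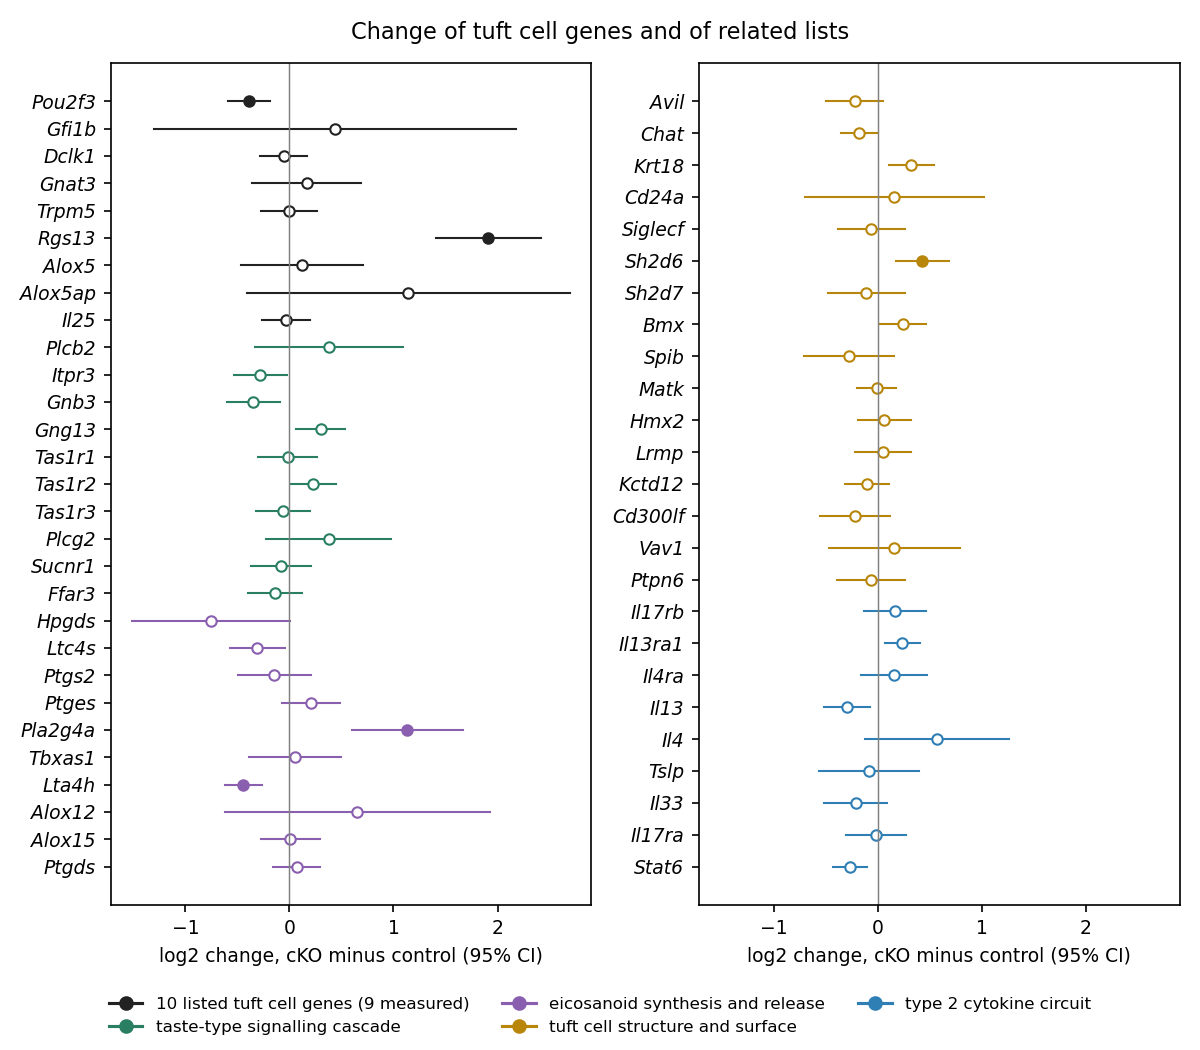
Log2 change, arrays labelled cKO minus control, with limma's 95% confidence interval, for the 9 measured tuft cell genes (black) and 45 genes of 4 further lists (colours); filled circles passed the adjusted threshold of 0.05. Filled circles are Rgs13, Pla2g4a and Sh2d6 to the right of 0 and Pou2f3 and Lta4h to the left, and the widest intervals among the 9 are those of Gfi1b and Alox5ap.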

How the data were processed

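Affymetrix Mouse Gene 1.0 arrays were hybridised with biotin-labelled RNA of 3 control and 3 cKO samples. The authors deposited a log2 value for each of 35512 probe sets on every array, computed with dChip per the series' design text, whose version and settings the sources used here do not give. The log base is not stated and was read from the range of the values, so folds rest on it. Of the probe sets, 21789 have 1 gene in the platform annotation, 1621 several and 12102 none. Gene IDs of 21698 matched RefSeq (GRCm38.p6), and 0 symbols changed. The probe set with the highest mean was kept for each gene, leaving 19938.

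Groups were compared with limma 3.58.1 in R 4.3.3 (lmFit, eBayes, two-sided, no covariate, no filter), with Benjamini-Hochberg adjustment over all 19938 genes. The procedure was tested on simulated data. The precision is limited by the number of arrays. Members and lists were chosen with earlier results of these data known. Named are the 10 members, Gata4, Gata6, every called gene of the 4 further tuft cell lists or else the 2 with the smallest adjusted p, and, of lists for 10 other cell types, the gene with the highest mean and called genes of cells known to share a member. Cpa3, Fcer1a, Ms4a2, Mcpt4, Cma1, Tpsb2, Alox12, Epcam, Snap25, Neurod1 and Pax6 fall outside this rule and were named after their values were seen. No scan date or batch is given in the labels.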

Additional observations from a re-analysis of the deposited data

How the results depend on the processing

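The Rgs13 call was kept in all 14 alternatives in which it was tested (1.05 to 2.21), but it could not be tested with the dimmest genes left out. The Pou2f3 call was kept in 6 of 15. Of the 9 members, 1 was higher and 1 lower. The higher count was 0 with genes in the lower tertile or under the median of mean level left out, where Rgs13 was not tested. The lower count was 0 under centring, with genes under the median left out (Pou2f3 not tested), with the replicate block, without both control 3 and cKO 2 (chosen after seeing the data), and without any 1 array, so its range was 0 to 0. In the 4 further lists 2 were higher and 1 lower. The higher count was 4 with the lower tertile left out, 3 with genes under the median left out or with trended and robust eBayes, 0 with the replicate block, 1 without both arrays and 0 to 1 with 1 array left out. The lower count was 2 with log2(level + 32), the lower tertile left out, trended and robust eBayes, array weights or the mean of probe sets, 3 with genes under the median left out, 0 with the replicate block or without both arrays, and 0 to 2 with 1 array left out. Over all genes 2580 passed, against 1449 with the block, 1586 without both arrays, and 1482, 1514 and 1587 without control 2, control 3 and cKO 3.

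The labels link samples of the same number by nothing but the number. Their deviations from the group means correlated at −0.015, −0.425 and −0.184. Deviations within groups of 3 arrays are not independent, and cKO 2 stood apart, so these values cannot decide whether samples were paired. With the replicate block Rgs13 passed (adjusted p = 0.00411), and Pou2f3 (0.0785), Pla2g4a (0.0785), Lta4h (0.0652) and Sh2d6 (0.110) did not, nor did Gata4 (0.0521). Without both arrays neither Gata4 (0.0647) nor Gata6 (0.0503) passed. Among uncalled members the sign turned in 1 alternative each for Dclk1, Gnat3 and Il25, in 4 for Trpm5 and in 2 each for Gfi1b and Alox5, and never for Alox5ap. Outside the members Stat6 and Vim passed in 6 alternatives each, Il13ra1 in 2 and Gnb3 in 1. The causes were not tested. No detection calls were used here, so what signal over background hides in the dim genes is not known. No outlier test was run, since groups of 3 arrays are too small for it.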
